A study of Mus musculus with 4 samples.

Results

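Expression of 8 transcription factors of the prostate and urogenital epithelium, *Foxa1*, *Foxa2*, *Sox9*, *Sox2*, *Trp63*, *Gata3*, *Klf5* and *Elf3*, was followed in the urogenital sinus (UGS) of mouse embryos. They were chosen by name, and each of the 8 was found in the deposited table of 25819 gene rows. The UGS is the embryonic tube below the bladder from which the prostate buds. Whole UGS was dissected from male embryos on a B6C3-F1 hybrid background, and the groups were wild type and Tbx18Gfp/Gfp littermates at E16.5 and at E18.5. The Tbx18Gfp/Gfp mutants carry a GFP knock-in on both copies of *Tbx18* in every cell and are null for this mesenchymal T-box factor, and the wild type embryos carry neither. RNA from 3 embryos was pooled for each library, so each genotype and stage is 1 library and 4 libraries were made in all. No replicate error could be computed and no test between genotypes or stages was applied. The values are FPKM, fragments per kilobase of transcript scaled to the mapped reads of the library, and any fold change given here is a ratio of FPKM between libraries. A gene was tested against a fold threshold only where a library of the pair reached 1 FPKM.

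These factors act in the epithelium, whereas *Tbx18* is expressed in the surrounding mesenchyme. FOXA1 and FOXA2 are forkhead proteins that open chromatin for other factors in endodermal and prostate epithelium. SOX9 and SOX2 are HMG box factors of budding and progenitor epithelium, p63 (*Trp63*) maintains basal cells, GATA3 is a zinc finger factor of urothelium and of luminal epithelia, KLF5 is a zinc finger factor of proliferating basal epithelium and ELF3 is an ETS factor of differentiating epithelium. Several of them are also used outside the epithelium, SOX2 in glia, SOX9 in cartilage, and GATA3 in sympathetic neurons, T cells and the nephric duct. Since whole UGS was sequenced, fewer epithelial cells and less RNA per epithelial cell cannot be told apart.

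The promoters of 3 of the genes are shown because their genes differ in what follows, with *Foxa1* lower in the mutant at both stages, *Gata3* lower at E18.5 and not at E16.5, and *Elf3* at nearly the same FPKM in both E18.5 libraries. The sequences are those of RefSeq on GRCm38.p6, from 250 bases before to 50 bases after the gene start, written 5′ to 3′ on the strand of the gene. They lie at chr12:57546062-57546361 for *Foxa1*, chr2:9878551-9878850 for *Gata3* and chr1:135258423-135258722 for *Elf3*, all on the minus strand. Capitals mark GGTGTG, the core of the T-box binding sequence, and TGTTTAC, a forkhead motif, on either strand.
Foxa1: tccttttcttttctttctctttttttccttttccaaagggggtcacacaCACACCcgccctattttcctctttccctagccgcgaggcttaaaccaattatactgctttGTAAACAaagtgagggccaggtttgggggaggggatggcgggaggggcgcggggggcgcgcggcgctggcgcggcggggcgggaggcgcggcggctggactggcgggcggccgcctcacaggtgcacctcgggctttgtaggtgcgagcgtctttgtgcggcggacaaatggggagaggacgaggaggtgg
Gata3: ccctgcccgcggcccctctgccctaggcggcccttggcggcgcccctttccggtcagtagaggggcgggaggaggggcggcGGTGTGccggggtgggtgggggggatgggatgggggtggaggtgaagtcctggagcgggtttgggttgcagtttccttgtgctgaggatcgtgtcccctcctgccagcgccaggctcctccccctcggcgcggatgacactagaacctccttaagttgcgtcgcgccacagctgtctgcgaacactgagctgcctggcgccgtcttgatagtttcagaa
Elf3: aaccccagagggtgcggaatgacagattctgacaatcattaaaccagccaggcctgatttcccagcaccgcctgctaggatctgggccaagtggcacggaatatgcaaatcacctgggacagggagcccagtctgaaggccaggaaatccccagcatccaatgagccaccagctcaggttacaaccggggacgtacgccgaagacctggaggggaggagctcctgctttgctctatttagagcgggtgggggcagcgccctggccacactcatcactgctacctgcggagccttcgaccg
GGTGTG was found in the promoters of *Foxa1* (as CACACC, from base 50) and *Gata3* (from base 82), and in 19.0% of all 32851 promoters of this length. It was in none of the promoters listed for *Foxa2*, a gene 1.78-fold lower in the E18.5 mutant, and not in that of *Sox2*. A link between this sequence and the levels in the mutant was not tested. TGTTTAC was found in the promoter of *Foxa1* only (as GTAAACA, from base 110) among the 7 promoters listed for *Foxa1*, *Foxa2*, *Sox2*, *Gata3* and *Elf3*, and in 3.65% of all promoters. The longer T-box sequence AGGTGTGA was in none of the 7 and in 1.28% of all. No promoter of *Sox9*, *Trp63* or *Klf5* was listed. A match describes the letters in this window and was not tested as a site.

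The E18.5 wild type library was the shallowest, with an estimated 29.0 M (mega) mapped reads against up to 64.0 M in the others, and it stood apart. Up to 20.1% of genes were past 2-fold in a pair that included it, and at most 2.51% in any other pair. It was the lowest library for 63.7% of the 15023 genes that reached 1 FPKM in any library. Among genes that reached 1 FPKM on both sides, the median log2 ratio of mutant to wild type was 0.01 (E16.5) and 0.29 (E18.5). For *Tbx18* itself, wild type against mutant stood at 3.47 against 2.50 FPKM (E16.5) and 3.16 against 2.93 FPKM (E18.5), a gene-level value to which RNA of the knock-in allele could also contribute. Comparisons that use the E18.5 wild type library are followed by values that set the E18.5 mutant against E16.5 wild type instead.

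Positions in the deposited table are of a build that is not given in the sources used here, and they differ from those of the RefSeq promoters. *Foxa1* (chromosome 12, bases 58641618 to 58647108 in the deposited table) stood at 19.4 FPKM (wild type) against 14.4 FPKM (mutant) at E16.5, then 30.0 against 15.3 at E18.5. The E18.5 wild type value was the high one, and the mutant libraries of both stages were close to each other. *Foxa2* (chromosome 2, bases 147868614 to 147872705) was the lowest of the 8 genes in each library, with 0.989 FPKM (wild type) against 1.04 FPKM (mutant) at E16.5, then 1.22 against 0.688 at E18.5. These values stand for about 68 to 121 reads, so that its ratios are less precise than those of the others.

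*Sox9* (chromosome 11, bases 112643524 to 112649071) stood at 11.3 FPKM (wild type) against 11.8 FPKM (mutant) at E16.5, then 16.7 against 8.26 at E18.5. The E16.5 libraries lay between the E18.5 wild type, which was high, and the E18.5 mutant, which was low. *Sox2*, a gene of 1 exon (chromosome 3, bases 34548927 to 34551383) stood at 5.21 against 4.34 FPKM at E16.5, then 3.05 against 2.81 at E18.5. It was lower at E18.5 than at E16.5 in either genotype. *Sox2* lies within the noncoding RNA gene *Sox2ot* on the same strand, and antisense transcripts are annotated over *Gata3* and *Elf3*. The counting is not stated to use strand, so their reads cannot be told apart from those of the factors.

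*Trp63* (chromosome 16, bases 25683851 to 25892174) stood at 10.7 FPKM (wild type) against 7.93 FPKM (mutant) at E16.5, then 15.5 against 8.39 at E18.5. Its levels went with those of *Foxa1*, and the ratio of *Trp63* to *Foxa1* FPKM within a library was 0.551, 0.551, 0.518 and 0.548 in the order just given. The table has 1 row for the gene and does not separate the long and short amino-terminal isoforms of p63. *Gata3* (chromosome 2, bases 9778705 to 9800227) had the highest FPKM of the 8 genes in 3 of the libraries, with 34.3 FPKM (wild type) against 34.8 FPKM (mutant) at E16.5, then 40.6 against 27.0 at E18.5. The E16.5 libraries were nearly equal and again lay between those of E18.5.

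*Klf5* (chromosome 14, bases 99697910 to 99712631) stood at 23.1 FPKM (wild type) against 18.1 FPKM (mutant) at E16.5, then 65.2 against 14.3 at E18.5. The E18.5 wild type value was the highest of any of the 8 genes in any library, and 94.5% of genes that reached 1 FPKM in that library were below it. *Elf3* (chromosome 1, bases 137150151 to 137155049) stood at 21.9 against 19.1 FPKM at E16.5, then 13.9 against 14.1 at E18.5. Like *Sox2*, it was lower at the later stage in either genotype and had no high value in E18.5 wild type.

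By FPKM, the order was *Gata3*, *Klf5*, *Elf3*, *Foxa1*, *Sox9*, *Trp63*, *Sox2* and *Foxa2* in E16.5 wild type UGS, and the mutant of that stage differed from it only in that *Elf3* was above *Klf5*. In E18.5 wild type UGS the order was *Klf5*, *Gata3*, *Foxa1*, *Sox9*, *Trp63*, *Elf3*, *Sox2* and *Foxa2*. In the E18.5 mutant *Foxa1* (15.3 FPKM), *Klf5* (14.3 FPKM) and *Elf3* (14.1 FPKM) were close together below *Gata3*, as were *Trp63* (8.39 FPKM) and *Sox9* (8.26 FPKM) below them. Also close were *Klf5* and *Elf3* in each E16.5 library, and *Sox9* and *Trp63* in each wild type library. With no measure of spread between libraries of a group, the order of such close neighbours is not to be read as a difference.

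**Figure D1:**
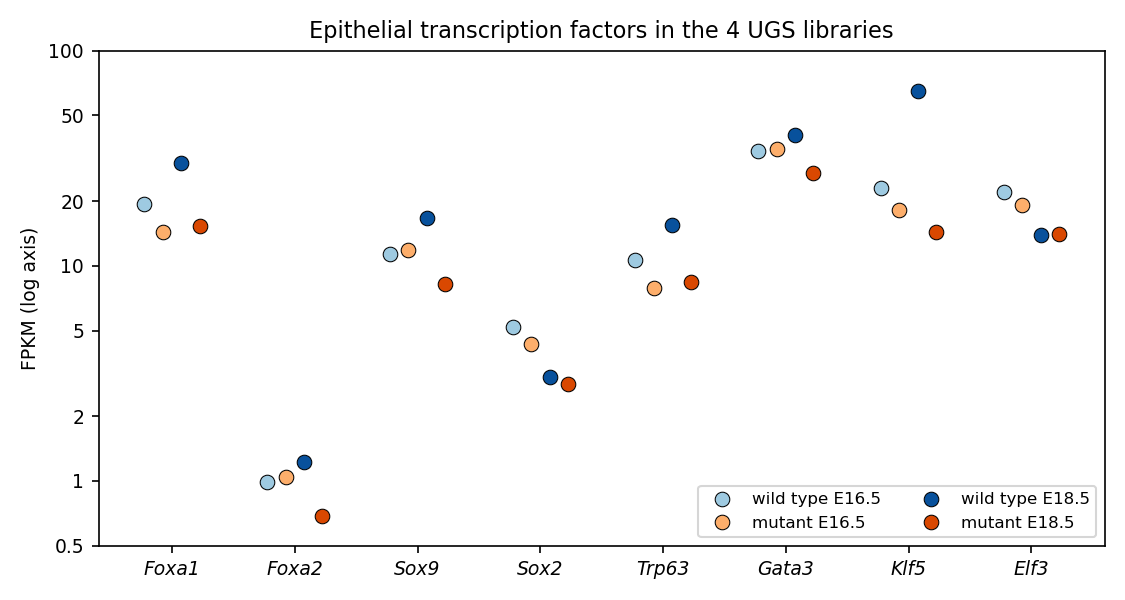
FPKM of the 8 genes (log axis) in the 4 libraries, with 1 point for each library of RNA pooled from 3 embryos. The E18.5 wild type point is the highest for 6 genes, furthest from the others for *Klf5* at 65.2 FPKM, and not for *Sox2* or *Elf3*.

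At E18.5, 6 of the 8 genes were at least 1.5-fold lower in Tbx18Gfp/Gfp than in wild type UGS, and 0 were 1.5-fold or 2-fold higher. Over all 14733 genes tested at this stage 7.6% were that much lower, while 33.2% were 1.5-fold and 15.1% were 2-fold higher. *Klf5* (4.56-fold lower) and *Sox9* (2.02-fold lower) passed 2-fold, which 2.89% of all genes did in that direction. The median log2 ratio of the 8 genes was -0.86, against 0.31 for all genes tested.

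*Klf5* had a log2 ratio of -2.19, with a 95% counting interval of -2.26 to -2.12, and only 0.462% of all genes tested had a lower ratio. The counting interval covers the sampling of reads in these libraries and not the difference between embryos. *Sox9* had a log2 ratio of -1.02 (-1.11 to -0.92), *Foxa1* of -0.97 (-1.05 to -0.89) and *Trp63* of -0.89 (-0.97 to -0.80). *Foxa2*, with few reads, had a log2 ratio of -0.83 and an interval of -1.34 to -0.33. *Gata3* had a log2 ratio of -0.59 (-0.65 to -0.52), a fold that lay just past the 1.5-fold threshold. *Sox2* (-0.12, from -0.38 to 0.14) and *Elf3* (0.02, from -0.11 to 0.15) had intervals that included 0.

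Because the ratios of all genes at E18.5 were shifted upwards in the mutant, the values were also taken relative to the median of all genes. All 8 were then below 0, with log2 ratios from -2.48 for *Klf5* to -0.27 for *Elf3*, and 5 genes passed 2-fold lower and 6 passed 1.5-fold lower, against 5.42% and 16% of all genes after the same centring. Across all genes the E18.5 ratio also varied with how long and how GC-rich a transcript is, and the 8 genes differ in both. *Foxa2*, *Elf3* and *Foxa1* have GC-rich transcripts, at 57.0%, 56.5% and 54.2%, while that of *Trp63* is at 44.2%. After subtraction of a trend fitted on both, the log2 ratios of *Foxa2* and *Foxa1* were -1.58 and -1.51, that of *Elf3* was -0.71, and that of *Trp63*, whose trend value was 0.01, was -0.90.

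At E16.5 no gene of the 8 was 1.5-fold lower or higher in the mutant, where 2.72% of the 14761 genes tested were that much lower and 1.44% that much higher, with 1.17% and 0.481% past 2-fold. *Foxa1* and *Trp63* each had a log2 ratio of -0.43 (-0.50 to -0.35), a fold of 1.34. *Klf5* had a log2 ratio of -0.35 (-0.42 to -0.29), *Sox2* of -0.27 (-0.43 to -0.10) and *Elf3* of -0.20 (-0.28 to -0.11). These 5 genes were the lower ones, and their counting intervals did not include 0. *Sox9* (0.06), *Gata3* (0.02) and *Foxa2* (0.07) had ratios near 1, and each was slightly below 0 on the log2 scale when the sums of the libraries were made equal. The median log2 ratio of the 8 genes was -0.23, against 0.01 for all genes tested.

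**Figure D2:**
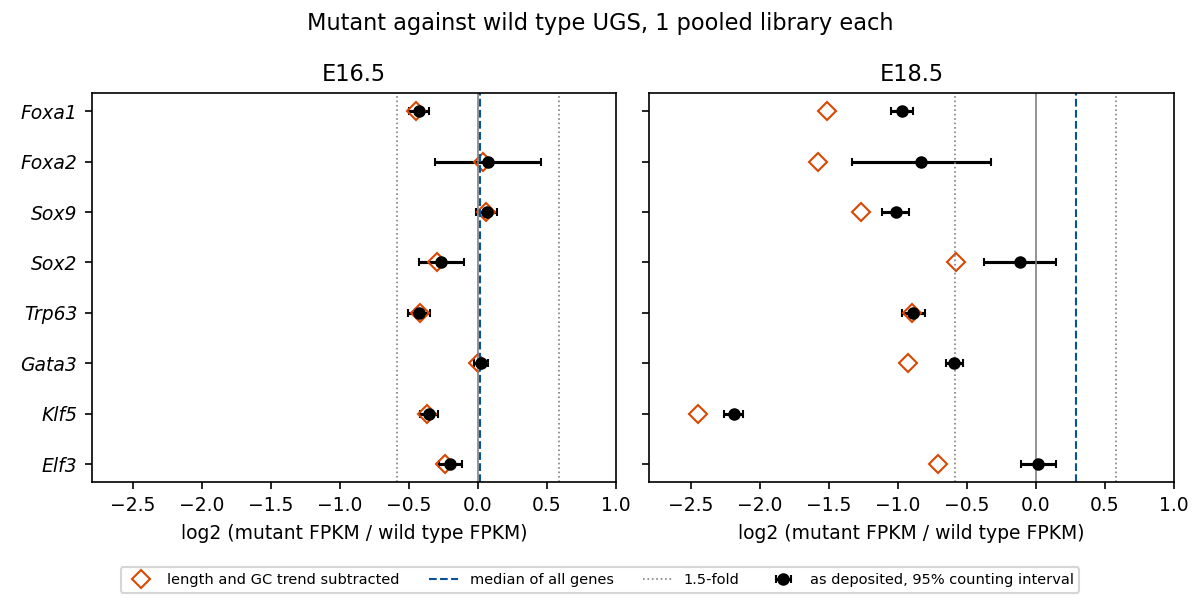
The log2 ratio of mutant to wild type FPKM for the 8 genes at each stage, as deposited (filled points, with 95% counting intervals) and after subtraction of the length and GC trend (open diamonds). At E16.5 all points lie within the dotted 1.5-fold lines, and at E18.5 6 lie below the lower line, with the dashed line at the median of all genes (0.29).

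From E16.5 to E18.5, 6 of the 8 genes were higher at the later stage in wild type UGS, while 6 were lower at the later stage in the mutant. The median log2 ratio of all genes tested was -0.35 in wild type and -0.06 in mutant UGS. Lower at the later stage was thus the more common direction in either genotype. In wild type UGS *Klf5* was 2.82-fold and *Foxa1* 1.55-fold higher at E18.5, and 6.8% of all genes tested were at least 1.5-fold and 2.7% at least 2-fold higher. *Sox9* (1.48-fold) and *Trp63* (1.46-fold) lay just under that threshold. *Gata3* was 1.18-fold higher and *Foxa2* 1.24-fold higher, the latter with a counting interval of -0.14 to 0.75 on the log2 scale. *Sox2* was 1.71-fold and *Elf3* 1.57-fold lower at E18.5, in a comparison in which 35.9% of all genes were 1.5-fold and 16.8% were 2-fold lower. Under each of 3 scalings and with the length and GC trend subtracted, neither gene was 1.5-fold lower. *Elf3* had a log2 ratio of 0.15 with the trend subtracted. In these settings 5 or 6 of the 8 genes were 1.5-fold higher. Each scaling raises the ratios of all genes alike, so the share of all genes past that threshold also rises. That share is not given here. As deposited, the median log2 ratio of the 8 genes was 0.43, and that of all genes tested was -0.35.

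In the mutant, 2 of the 8 genes differed by 1.5-fold between the stages. *Sox2* (1.54-fold) and *Foxa2* (1.51-fold) were past 1.5-fold lower at E18.5, as were 1.68% of all genes, and 0 of the 8 were 1.5-fold higher, as were 3% of all genes. None passed 2-fold, where 0.571% of all genes were lower and 1.35% higher. *Sox9* had a log2 ratio of -0.52, *Elf3* of -0.44, *Gata3* of -0.37 and *Klf5* of -0.34. *Foxa1* (0.09, from 0.01 to 0.17) and *Trp63* (0.08, with an interval that just included 0) were nearly level between the stages. The median log2 ratio of the 8 genes was -0.40, against -0.06 for all genes tested. *Foxa2*, *Sox9*, *Gata3* and *Klf5* thus had ratios of opposite sign in the genotypes, a difference that was not tested. How many of all genes had opposite signs is not given here. These stage ratios and the mutant to wild type ratios share libraries, so they are not separate observations of the same change.

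**Figure D3:**
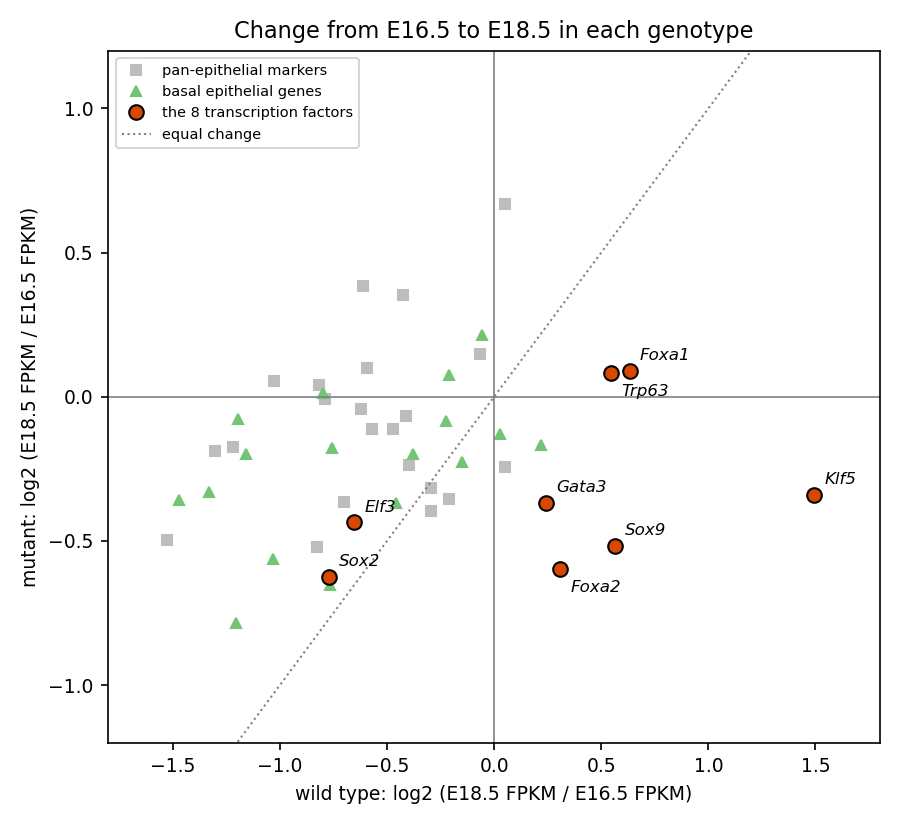
The log2 ratio of E18.5 to E16.5 FPKM in wild type (horizontal axis) and in mutant UGS (vertical axis), with 1 point for each gene. Of the 8 genes, 6 lie to the right of 0, with *Klf5* at 1.49, while 20 of 22 pan-epithelial markers (squares) lie to the left of 0. The median of all genes tested in wild type, -0.35, is also to the left of 0. Triangles are basal epithelial genes, and points below the dotted line had a smaller ratio in the mutant.

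The 6 genes that were 1.5-fold lower in the E18.5 mutant had their highest FPKM of the 4 libraries in E18.5 wild type UGS. Both traits use the same E18.5 wild type value, so they are not separate observations. Over all genes that reached 1 FPKM in any library, 21.9% had their highest value there. That share was not computed over genes lower in the E18.5 mutant. Without that library, the E18.5 mutant could be set against E16.5 wild type UGS, a comparison that differs in stage as well as genotype. All 8 genes were lower in the E18.5 mutant in it. Of the 7 with at least 1 FPKM in either library, 3 were 1.5-fold lower, *Sox2* (1.85-fold), *Klf5* (1.62-fold) and *Elf3* (1.55-fold), and none was 2-fold lower, where 3.41% and 1.28% of all genes were. None was higher, against 3.06% of all genes at 1.5-fold and 1.23% at 2-fold. *Foxa1* and *Trp63*, at 1.26-fold and 1.27-fold lower, and *Sox9*, at 1.37-fold lower, did not pass. The 2.02-fold difference of *Sox9* and the 4.56-fold difference of *Klf5* at E18.5 thus rest on the E18.5 wild type library, and what part of them belongs to that library was not tested.

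General markers of epithelium were examined beside the 8 genes, since a factor of scale between libraries cancels in a ratio taken within a library. The list held 22 genes of keratins, claudins, adhesion molecules and epithelial splicing factors, of which *Krt19*, *Krt18* and *Krt8* had the highest FPKM. Its summed level was 853 FPKM (wild type) against 782 FPKM (mutant) at E16.5, then 609 against 821 at E18.5. Its median log2 ratio of mutant to wild type was -0.17 at E16.5, where none of the 22 passed 1.5-fold, and 0.37 at E18.5, where 7 were at least 1.5-fold higher and 1 was 1.5-fold lower. These 7 of 22 are near the background of 33.2% of all genes. After subtraction of the length and GC trend the median of the markers was -0.26. After median centring 5 markers were 1.5-fold higher and 2 lower, against 19.7% and 16% of all genes. For the E18.5 mutant against E16.5 wild type the median of the markers was -0.33. It was near the -0.45 of the 7 genes tested of the 8.

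In the later pair of libraries, as deposited, the log2 ratios of *Klf5*, *Sox9*, *Foxa1*, *Trp63* and *Foxa2* were below those of all 22 markers, and that of *Gata3* was below those of 21. With the length and GC trend subtracted, the median log2 ratio was -1.10 for the 8 genes and -0.26 for the markers. Relative to the median of the markers the 8 genes had log2 differences, as deposited, from -2.55 for *Klf5* to -0.35 for *Elf3*, with a median of -1.22. At E16.5 that median was -0.06. For the E18.5 mutant against E16.5 wild type it was -0.12 over the 7 genes tested, with *Foxa1*, *Trp63* and *Gata3* at -0.01, -0.01 and -0.02, *Sox9* at -0.12, *Elf3* at -0.31, *Klf5* at -0.36 and *Sox2* at -0.56. Most of the distance from the general markers at E18.5 was thus not seen with E16.5 wild type in place of E18.5 wild type. That comparison differs in stage as well, so stage and library cannot be told apart. The distance depended on the marker, since *Cdh1* (E-cadherin, the adhesion molecule of epithelial junctions) was itself the marker with the lowest ratio, with 36.8 FPKM (wild type) against 23.3 FPKM (mutant) at E18.5. *Foxa1* stood at 0.815 of the *Cdh1* level in E18.5 wild type and 0.659 in the E18.5 mutant, and *Gata3* at 1.10 and 1.16. *Klf5* stood at 1.77 of the *Cdh1* level in E18.5 wild type and between 0.615 and 0.657 in the other 3 libraries. *Klf5* was thus apart in E18.5 wild type by this measure too, whereas *Gata3* was not lower over *Cdh1* in the mutant.

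**Figure D4:**
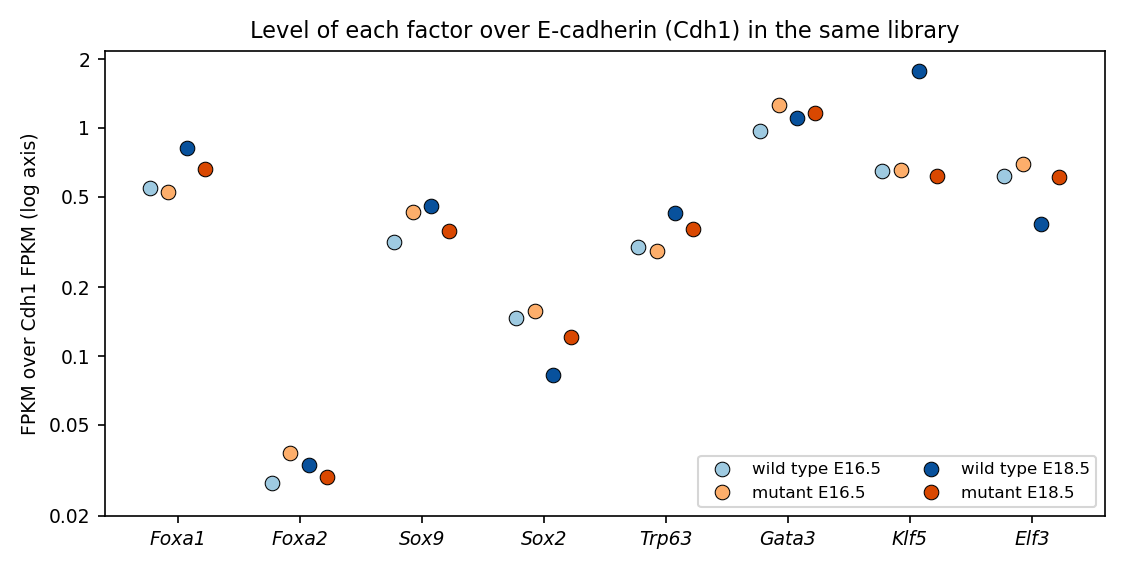
FPKM of each of the 8 genes over the FPKM of *Cdh1* in the same library (log axis), with 1 point for each library. The E18.5 wild type point of *Klf5*, at 1.77, stands above the other 3, while the points of *Gata3* lie between 0.966 and 1.26.

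Genes of the basal layer, several of them known targets of p63, were set beside *Trp63*. *Krt5*, a keratin of basal cells, stood at 104 FPKM (wild type) against 70.7 FPKM (mutant) at E16.5, then 59.8 against 71.4 at E18.5. The ratio of *Trp63* to *Krt5* FPKM was 0.260 in E18.5 wild type and between 0.102 and 0.118 in the other 3 libraries. A trend with transcript length and GC content does not cancel in this ratio. The log2 ratio of mutant to wild type at E18.5 was 0.26 for *Krt5* and -0.89 for *Trp63* as deposited. With the trend subtracted it was -0.48 and -0.90. At E18.5, 17 of the listed genes had at least 1 FPKM, among them *Krt15* and *Perp*. None of the 17 was 1.5-fold lower in the mutant and 3 were 1.5-fold higher (1 and 1 after median centring). Over all genes tested 7.6% were lower and 33.2% higher, or 16% and 19.7% after the same centring. The median log2 ratio of the 17 genes was 0.14. That median was -0.15 after median centring and -0.32 with the trend subtracted. For the E18.5 mutant against E16.5 wild type it was -0.32, where *Trp63* was at -0.34. The urothelial differentiation genes, among them *Psca*, *Upk1b* and *Upk1a*, had a median of -0.50 at E16.5 and 0.21 at E18.5 over 8 genes, the latter being -0.08 after median centring and -0.30 with the trend subtracted. For the E18.5 mutant against E16.5 wild type the median of the urothelial genes was 0.68. From E16.5 to E18.5 all 8 of these were higher in wild type and in mutant UGS, with median log2 ratios of 0.49 and 1.16.

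Relatives of the 8 genes by family were followed for the same comparison. Of 28 listed, 23 had at least 1 FPKM at E18.5, and of these 4 were at least 1.5-fold higher and 2 at least 1.5-fold lower in the mutant, or 1 higher and 5 lower after median centring, with a median log2 ratio of 0.02 (-0.08 for the E18.5 mutant against E16.5 wild type). Over all genes tested 33.2% were 1.5-fold higher and 7.6% lower, or 19.7% and 16% after the same centring. *Klf3*, a Kruppel-like repressor, had 54.3 FPKM (wild type) against 22.9 FPKM (mutant) at E18.5, a log2 ratio of -1.25, where E16.5 gave 29.0 against 25.7 FPKM. *Klf4*, which is linked to epithelial differentiation, was on the other side, with 5.90 FPKM (wild type) against 13.3 FPKM (mutant) at E18.5 (log2 ratio 1.17). *Ehf*, an ETS factor close to *Elf3* and named here after its value was seen, had 28.4 and 17.1 FPKM (-0.73). As deposited at E18.5 the families were mixed in direction, with *Klf5* and *Klf3* low and *Klf4* high, and *Ehf* low while *Elf3* was level. *Elf3* was at -0.27 after median centring and at -0.71 with the trend subtracted. For the E18.5 mutant against E16.5 wild type *Elf3* was at -0.64. In E16.5 wild type UGS *Klf4* had 9.51 FPKM and *Ehf* 22.0 FPKM, closer to the E18.5 mutant than the E18.5 wild type values were.

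Among 28 other transcription factors of urogenital epithelium, 24 were in the table and 20 had at least 1 FPKM at E18.5. At that stage 5 were at least 1.5-fold lower and 1 was 1.5-fold higher in the mutant, or 8 lower and 1 higher after median centring. Over all genes tested 7.6% were 1.5-fold lower and 33.2% higher, or 16% and 19.7% after the same centring. The median log2 ratio of these factors was -0.15, which became -0.44 after median centring. For the E18.5 mutant against E16.5 wild type it was -0.35. The 1 that was higher was *Hoxb13*, a prostate homeobox gene, at 0.940 FPKM (wild type) against 1.91 FPKM (mutant). At E16.5 it had 2.90 FPKM (wild type) and 2.61 FPKM (mutant), both above the E18.5 values. Among the 5 lower ones, and named after their values were seen, were *Myb* (log2 ratio -0.88), *Hoxd13* (-0.87) and *Zfp750* (-0.79). *Klf5*, *Sox9* and *Foxa1* had lower ratios than all 20. Over all genes tested at E16.5, 1.44% were at least 1.5-fold higher and 2.72% lower, with 0.481% and 1.17% past 2-fold. Of these factors, 3 of 22 were at least 1.5-fold higher and 3 at least 1.5-fold lower at that stage, and none passed 2-fold. *Pax2* and *Pax8* were among the higher and *Barx2* and *Zfp750* among the lower, also named after their values were seen.

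**Figure D5:**
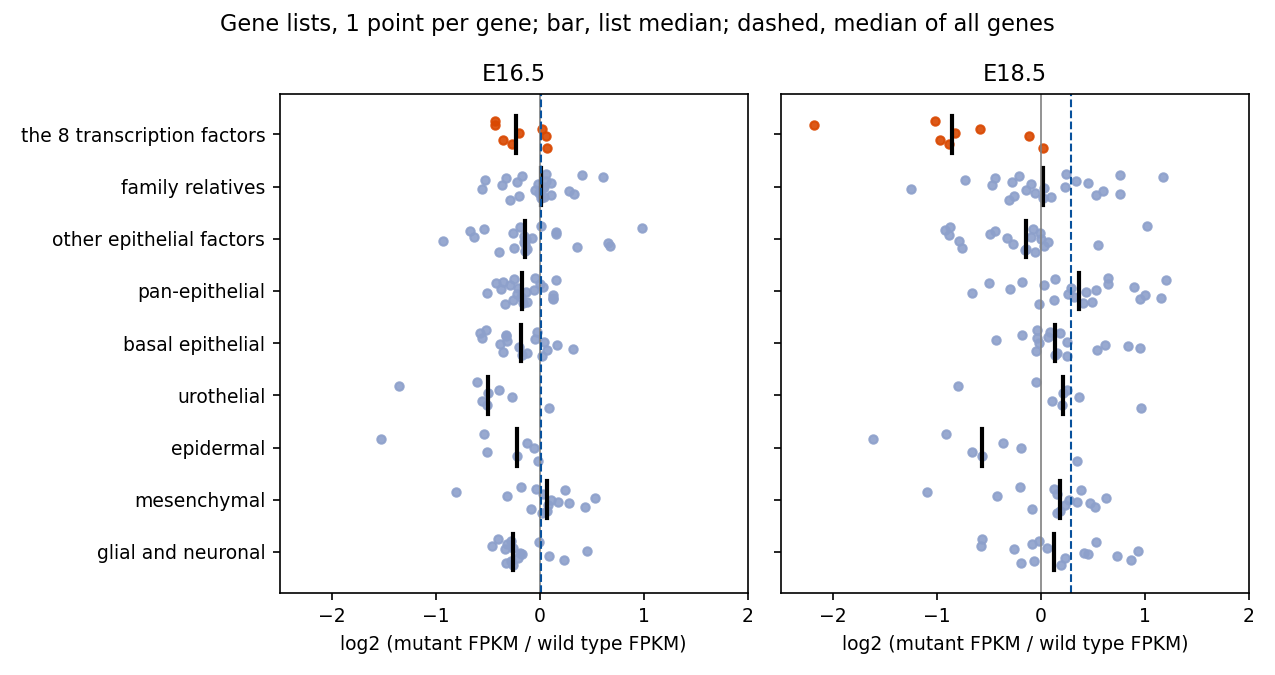
The log2 ratio of mutant to wild type FPKM at each stage for the 8 genes and for 8 gene lists, with 1 point for each gene tested, black bars at list medians and a dashed line at the median of all genes. At E18.5 the bar of the 8 genes lies at -0.86, below those of the pan-epithelial (0.37) and basal epithelial (0.14) lists.

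Markers of other tissues in which these factors are used were also summed. Most markers of hindgut epithelium, a neighbour of the UGS, were nearly absent. Of 11 rows, 9 were under 1 FPKM in all libraries, *Cdx1* and *Cdx2* had at most 0.01 FPKM, and the sums were 3.56 to 7.65 FPKM. *Lgals4*, *Fabp1* and *Guca2a* had the highest FPKM, and *Lgals4* lay between 2.15 and 3.97 FPKM. *Fabp1* was higher in the mutant at E16.5, with a log2 ratio of 3.15 over 0.225 FPKM in wild type. That difference was not tested. Of 10 T cell markers, 7 were under 1 FPKM in all libraries, among them *Cd3d*, *Cd3e* and *Cd3g*, and the sums were 25.6, 35.2, 52.0 and 27.1 FPKM in E16.5 wild type, E16.5 mutant, E18.5 wild type and E18.5 mutant. Most of each sum was *Thy1*, which stromal cells also express. Cartilage markers, with *Col9a2*, *Col11a1* and *Col9a3* the highest, summed to 60.6, 68.5, 36.3 and 57.8 FPKM in the same order. The library with the lowest sum, E18.5 wild type, was also the lowest for 63.7% of all genes. Mesenchymal markers, led by the collagens *Col3a1*, *Col1a1* and *Col1a2*, summed to 3997, 4225, 4237 and 5020 FPKM.

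Glial and neuronal markers were present in each library, with sums of 582, 487, 389 and 485 FPKM in the same order, of which *Stmn2*, *Prph* and *Tubb3* had the highest FPKM. Of the sympathetic enzyme genes, *Dbh* had 34.1, 36.3, 40.1 and 27.0 FPKM, close to *Gata3*, and *Th* had 21.7, 25.6, 15.2 and 25.3 FPKM, which was not. The list had a median log2 ratio of mutant to wild type of 0.13 at E18.5, and of -0.25 for the E18.5 mutant against E16.5 wild type. Nephric and genital duct markers, with *Ret*, *Cdh16* and *Emx2* the highest, summed to 57.9, 76.8, 57.6 and 57.3 FPKM. Epidermal markers summed to 229, 165, 866 and 301 FPKM, of which *Sprr1a*, a cornified envelope gene that other stratified epithelia also express, made up 199, 141, 822 and 268 FPKM. The high value of *Sprr1a* was in the library in which *Klf5* was high. The keratins *Krt1* and *Krt10* of epidermis had at most 2.81 and 3.20 FPKM. The part of these tissues in the levels of the 8 genes was not tested.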

How the data were processed

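Libraries were made with the KAPA Stranded mRNA-Seq Kit from RNA pooled from 3 male UGS per genotype and stage and sequenced as single-end reads. The submitters' processing notes name CASAVA 1.8.2, Trimmomatic 0.30, TopHat2 2.1.0 and Cufflinks 2.2.1, and the genome build is not given in the sources used here. The authors aligned with all Tophat options at default and deposited FPKM from Cufflinks, with 1 column per library and 25819 rows. Gene positions come from that table, counted from 1.

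Ratios of FPKM were computed without a pseudocount. Genes below 1 FPKM on both sides of a ratio were left out, as the study did, and the others were counted at 1.5-fold and 2-fold. With 1 library per group no test was made. Depth was estimated from 15 to 27 olfactory receptor genes per library, with loci under 1100 bases, whose FPKM were those of 1 read. Their inverse FPKM lay on a line with gene length. Reads of the 8 genes were estimated from these depths and from the longest GENCODE M21 transcript (for *Sox2*, the span of its locus), and 95% counting intervals are exact binomial (Clopper-Pearson). Transcript length and GC content were matched by symbol, and a lowess trend (span 0.3) was subtracted as an alternative. Further settings were scalings (equal sums, median, 75th percentile), pseudocounts of 0.1 and 1, FPKM filters and repeated symbols left out. The steps were tested on simulated data.

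All 8 genes are named. From the lists of relatives and of other epithelial factors the rule named those past 2-fold, and from marker lists the 3 with the highest mean FPKM. From the T cell and epidermal lists only the highest, *Thy1* and *Sprr1a*, were named by this rule. Outside this rule, and with values seen, *Cdh1*, *Dbh*, *Th*, *Krt1*, *Krt10*, *Cdx1*, *Cdx2*, *Cd3d*, *Cd3e* and *Cd3g* are named as defining markers. The genes and the lists were chosen with earlier results of these data known. A few listed genes were not analysed here, and some are not reported here. Computation was in Python 3.11.15, with scipy 1.17.1 for intervals, statsmodels 0.14.6 for the trend, pandas 2.3.3 and numpy 2.4.6 for tables, and figures drawn in matplotlib 3.10.9.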

Additional observations from a re-analysis of the deposited data

Results flagged for a closer look

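*Klf5*, *Sox9* and *Gata3* had stage differences of opposite sign in the genotypes, with counting intervals that did not include 0 on either side. The log2 ratio of E18.5 to E16.5 was 1.49 in wild type and -0.34 in mutant UGS for *Klf5*, 0.56 and -0.52 for *Sox9*, and 0.24 and -0.37 for *Gata3*. The counting intervals cover the sampling of reads and not the difference between embryos. How many of all genes had opposite signs is not given here. Each genotype and stage has 1 library, so the difference between the genotypes was not tested. The wild type values rest on the E18.5 wild type library, which stood apart from the other 3.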

How the results depend on the processing

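No paired analysis was possible because each group has 1 library with no replicate number. The direction of the E18.5 ratio of mutant to wild type was the same under each alternative for 7 of the 8 genes. Most alternatives could not have reversed it. The scalings and the trend lower these ratios, and pseudocounts and filters cannot change a sign. Only the use of E16.5 wild type in place of E18.5 wild type could have turned a negative ratio positive. *Elf3* was below 0 in 5 of 11 settings and above 0 in the others. The median log2 ratio at E18.5, -0.86 as deposited, was -1.28 with equal sums, -1.15 after median centring, -1.12 after scaling to the upper quartile and -1.10 with the length and GC trend subtracted. The number of genes at least 2-fold lower, 2 as deposited, was 6, 5, 5 and 4 in these settings and 1 with a pseudocount of 1. Of all genes, 2.89% were 2-fold lower as deposited and 5.42% after median centring. Their share in the other settings is not given here. With E16.5 wild type in place of E18.5 wild type, the median over the 7 genes tested was -0.45. In this alternative, chosen after seeing the data, 3 genes were past 1.5-fold and 0 past 2-fold lower. Relative to basal epithelial genes instead of the general markers, the E18.5 median was -0.995 in place of -1.22, and relative to the general markers with E16.5 wild type in place it was -0.12.

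For E18.5 against E16.5 in wild type UGS the median of 0.43 became 0.72 with equal sums, 0.76 centred on the median, 0.72 with upper quartile scaling and 0.75 with the trend subtracted. The number at least 1.5-fold higher, 2 as deposited, was 5 in each of the scalings and 6 with the trend subtracted. The number 1.5-fold lower went from 2 to 0 in these 4 settings. The shares of all genes in these settings are not given here. With the trend subtracted the ratio of *Elf3* changed sign, to 0.15. Relative to the general markers this median was 1.01, and 1.18 relative to basal genes, while for the mutant libraries it was -0.29 and -0.20. In the mutant the 2 genes past 1.5-fold lower at E18.5, *Foxa2* and *Sox2*, lay close to that threshold, and the count was 1 with upper quartile scaling or a pseudocount of 0.1, and 0 centred on the median, with the trend subtracted, with a pseudocount of 1 or with a filter of 5 FPKM. The cause of these shifts was not tested. The depth limits *Foxa2* most.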

Other observations

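For each of the 8 genes, the 3 genes with the most similar profile over the 4 libraries were found among 10093 other genes with a mean of at least 5 FPKM, by the root mean square difference of centred log2(FPKM + 0.1). With 4 libraries many genes come close by this measure. *Trp63* was the second nearest gene to *Foxa1* (difference 0.04), after *Chrna3*, a nicotinic receptor subunit of autonomic neurons, and *Foxa1* was the nearest to *Trp63*. *Elf3* was nearest to *Grhl2*, an epithelial grainyhead factor (0.04), with wild type against mutant at 6.47 against 5.92 FPKM (E16.5) and 4.27 against 4.47 FPKM (E18.5). *Dbh* was the third nearest to *Gata3* (0.03), for which 186 genes lay within 0.1. No gene lay within 0.1 of *Klf5* and 19 lay within 0.25, with the nearest 3 rows at 0.12 to 0.19 having no gene name beyond a locus identifier. *Sox9* was nearest to *Sema6a* (0.05) and *Sox2* to *Epha4* (0.07), a semaphorin and an ephrin receptor.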
